A study of Mus musculus with 12 samples.

Results

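Mitochondrial ribosomal protein genes were taken as the names Mrpl or Mrps followed by a number, pseudogenes left out, that the gene column of either deposited clique table lists. There were 58 of them among 16197 names in all, 40 with Mrpl and 18 with Mrps names, on 17 chromosomes. They are 74.4% of the 78 annotated genes of these names, compared with 43.8% of the 21900 annotated protein-coding genes. The share was also high for cytosolic ribosomal protein genes (78.4%) and oxidative phosphorylation genes (79.05%). H3K27ac Hi-ChIP, which recovers contacts between chromatin regions carrying acetylated lysine 27 of histone H3, was applied to hepatocytes isolated from the livers of male C57BL/6 mice by collagenase perfusion and a low-speed spin. Young mice were 5 months old and old mice 25 months old, neither with any treatment, and each age had 6 libraries from 2 biological replicates in 3 batches. Per the labels, the older mice came from an aging colony and the younger were bought, and all were kept at the same site before use, so supply and age cannot be told apart.

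The mitochondrial ribosome translates the few proteins encoded by mitochondrial DNA, all of them subunits of the respiratory chain and ATP synthase. Its protein subunits are encoded in the nucleus, scattered over the genome, made in the cytosol and imported. The large subunit forms peptide bonds and the small subunit decodes the messenger RNA. Names do not always give the subunit: the product of Mrps18a belongs to the large subunit, while those of Mrps18b and Mrps18c belong to the small one. Hepatocytes are rich in mitochondria and need this machinery to renew their respiratory complexes.

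For each age the files hold 1 pooled network of nodes, which are 5 kb bins, grouped into sets that the authors call cliques. The clique size of a gene is the number of nodes in the clique that lists it, and each member was in at most 1 clique per age. With 1 network per age there is no spread between animals and no p-value, and the number of reads behind either network is unknown. The young network had 56928 nodes with a mean of 10.5 per clique, and the old network 40304 with a mean of 6.75. Sizes were therefore also compared after division by the mean of the age, the ratio of the means being 0.64 on the log2 scale. With 1 node added to each size, small old cliques are raised by less than this, and a gene in no old clique is not moved. In this bulk assay, fewer cells of a type and less signal per cell cannot be told apart. Young cliques listed 9 of 10 hepatocyte markers and old cliques 8, with medians of 52 and 21.5 nodes. All 6 Kupffer cell and all 4 lymphocyte markers were listed at neither age. In young, 2 of 5 endothelial, 1 of 4 stellate and 1 of 5 cholangiocyte markers were listed, in cliques of 2 to 25 nodes, and in old only the endothelial Lyve1, with 3 nodes. These sizes depend on the listing. By the largest clique within 2500 bp of the gene span, the endothelial Pecam1, listed with 4 nodes in young, had 88 in young and 2 in old. The hepatocyte marker Hnf4a, listed in young only, had 25 nodes in old by gene span.

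The start sites of 51 members are in the RefSeq table used here (GRCm38.p6, the assembly of mm10), and 6 promoters are printed because they mark the patterns described below. Mrpl46 shares its start region with Mrps11 and stayed in a clique of like size. Mrpl42 and Mrps18a belonged to large young cliques and were absent from the old lists. Mrps18c and Mrps25 were listed in old only, and Mrps24 had the largest ratio of old to young size. The windows run from 250 bases before to 50 after the start site. They are chr7:78783040-78783339 on the minus strand for Mrpl46, chr10:95501900-95502199 on the minus strand for Mrpl42 and chr17:46110754-46111053 on the plus strand for Mrps18a. For the others they are chr6:92183974-92184273 on the minus strand for Mrps25, chr5:100798509-100798808 on the plus strand for Mrps18c and chr11:5707652-5707951 on the minus strand for Mrps24. Capitals mark matches on either strand to any of 7 motifs, which are the NRF1 motif, CCGGAAG of ETS factors, AANATGGC of YY1, GGGCGG of SP1, CCAAT of NFY, CACGTG or E-box, and TATAAA, the box named after it.
Mrpl46: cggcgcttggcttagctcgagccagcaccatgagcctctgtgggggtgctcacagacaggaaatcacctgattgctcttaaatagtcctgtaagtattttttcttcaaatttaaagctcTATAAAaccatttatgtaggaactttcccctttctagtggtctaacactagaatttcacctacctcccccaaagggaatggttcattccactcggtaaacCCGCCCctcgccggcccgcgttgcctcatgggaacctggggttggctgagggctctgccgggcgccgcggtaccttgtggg
Mrpl42: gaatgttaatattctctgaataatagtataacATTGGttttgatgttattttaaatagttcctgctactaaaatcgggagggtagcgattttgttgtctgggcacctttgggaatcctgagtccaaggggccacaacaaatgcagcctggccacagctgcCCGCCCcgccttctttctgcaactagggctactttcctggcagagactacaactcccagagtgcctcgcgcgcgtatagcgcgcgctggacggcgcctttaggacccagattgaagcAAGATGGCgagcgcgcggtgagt
Mrps18a: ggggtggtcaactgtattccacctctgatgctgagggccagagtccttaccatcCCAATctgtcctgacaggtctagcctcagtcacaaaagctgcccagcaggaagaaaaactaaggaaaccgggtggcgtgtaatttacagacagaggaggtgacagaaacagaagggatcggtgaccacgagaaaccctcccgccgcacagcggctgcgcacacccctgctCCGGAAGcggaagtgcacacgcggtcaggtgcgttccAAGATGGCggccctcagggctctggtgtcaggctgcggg
Mrps25: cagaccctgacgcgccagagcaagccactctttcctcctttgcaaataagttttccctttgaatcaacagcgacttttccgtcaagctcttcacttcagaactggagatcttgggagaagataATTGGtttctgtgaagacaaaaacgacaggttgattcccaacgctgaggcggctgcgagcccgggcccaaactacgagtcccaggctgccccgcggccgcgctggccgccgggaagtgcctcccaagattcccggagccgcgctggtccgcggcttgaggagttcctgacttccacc
Mrps18c: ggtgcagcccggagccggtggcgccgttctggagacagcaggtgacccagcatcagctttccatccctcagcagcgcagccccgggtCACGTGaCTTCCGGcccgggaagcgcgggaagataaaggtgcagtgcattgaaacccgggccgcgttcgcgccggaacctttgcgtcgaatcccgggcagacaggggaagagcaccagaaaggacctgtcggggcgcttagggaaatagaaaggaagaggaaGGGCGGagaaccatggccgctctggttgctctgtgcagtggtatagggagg
Mrps24: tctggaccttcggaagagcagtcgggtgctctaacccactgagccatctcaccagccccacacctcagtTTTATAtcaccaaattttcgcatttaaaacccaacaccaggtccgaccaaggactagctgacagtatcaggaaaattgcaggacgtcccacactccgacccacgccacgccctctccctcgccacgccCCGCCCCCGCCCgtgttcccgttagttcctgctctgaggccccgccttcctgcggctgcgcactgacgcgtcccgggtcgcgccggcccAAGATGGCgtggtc

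Among the printed promoters, Mrpl42, Mrps18a and Mrps24 held the YY1 letters downstream of the start site, first base at 28, 12 and 37 counted from 1 at the start. Mrps18a also held an ETS match at -26, and Mrps18c one at -156 beside an E-box at -163. Mrps25 had 1 match, for NFY. YY1, NRF1 and the ETS factor GABP are known regulators of nuclear genes for mitochondrial proteins. Over the 51 members with a promoter, 17 (33.3%) held the YY1 letters, compared with 8.35% of 7690 listed protein-coding genes and 6.65% of all 17492 promoters of the same length. The ETS letters were in 17 members (33.3%), against 17.5% of listed genes and 11.9% of all. NRF1 matches were in 10 (19.6%), against 10.4% and 6.66%. For SP1 the share of members, 47.1%, was below the 61.9% of listed genes and near the 46.3% of all promoters. NFY (37.3%, against 38.9% of listed genes and 39.2% of all) and TATA (7.84%, against 7.82% and 13.3%) were in like shares of members and listed genes. The E-box letters were in 5 members, and in 772 of the 7690 listed genes. A match is a run of letters, and binding was not measured.

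Members also often had a start site of another protein-coding gene on the opposite strand within 1 kb. This held for 21 of 51 (41.2%), compared with 15.3% of listed genes and 9.31% of all. The gap was at most 300 bp in 15 of the 21. The partner started inside the member for Mrpl43 with Twnk (-779 bp) and Mrpl48 with Rab6a (-715 bp), and these overlapping pairs are counted as divergent here. Mrpl21 and Ighmbp2 started 32 bp apart, Mrpl46 and Mrps11 42 bp, Mrpl27 and Eme1 48 bp, Mrpl30 and Mitd1 66 bp, and Mrpl50 and Zfp189 93 bp. Where the partner was listed too, it was in the member's clique, for 19 of 19 members in young and 20 of 20 in old, Mrpl46 and Mrps11 being each other's partner. Both starts of a pair are within 1 kb and thus in the same or adjoining bins. Of the 21 members with a divergent start 19 were listed at both ages (90.5%), and of the 30 without one 16 were (53.3%). Among all listed genes these shares were 67.5% and 64.9%. This split of the members was made after their values were seen.

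**Figure D1:**
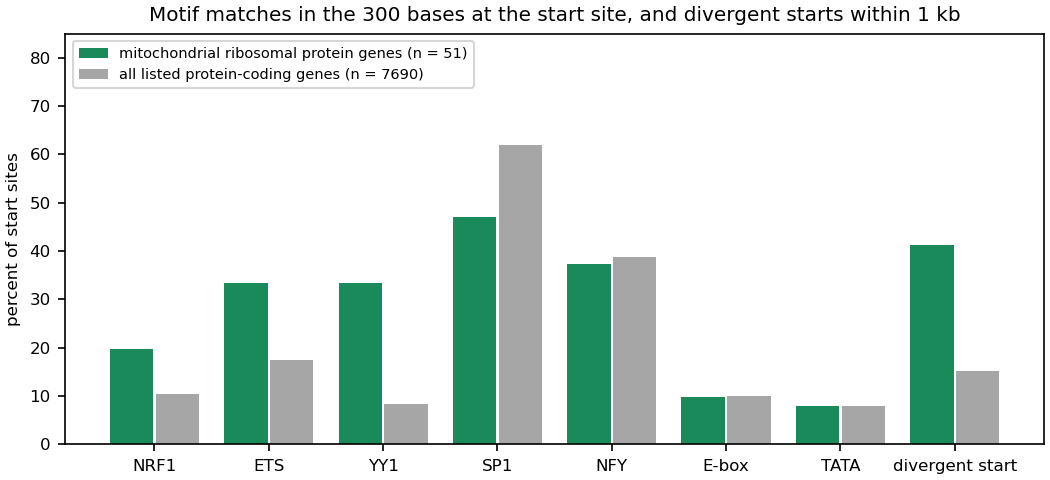
Percent of start sites whose promoter of 300 bases holds each motif on either strand, and percent with an opposite-strand start within 1 kb, for 51 members (green) and 7690 listed protein-coding genes (grey). YY1 letters were in 33.3% of members and 8.35% of listed genes, and divergent starts in 41.2% and 15.3%.

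Most members were listed at both ages. Young cliques listed 54 of the 58 and old cliques 46, and 42 were listed at both ages (72.4%, 95% Wilson interval 59.8 to 82.3), 12 in young only (20.7%, 12.3 to 32.8) and 4 in old only (6.90%, 2.71 to 16.4). The same shares of all 9595 listed protein-coding genes were 65.2%, 25.4% and 9.43%. The intervals cover counting error only and treat genes as independent. Large and small subunit names differed in these counts. Of 40 Mrpl names, 33 were listed at both ages, 7 in young only and 0 in old only (Wilson interval 0 to 8.76%). Of 18 Mrps names, 9 were listed at both, 5 in young only, and 4 (22.2%, 9.001 to 45.2) in old only. Whether the names differ beyond chance was not tested, and of the 4 genes in old only, 2 were in cliques of 2 nodes. By gene span with 2500 bp on each side, 3 genes were in old only, without Mrps23.

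**Figure D2:**
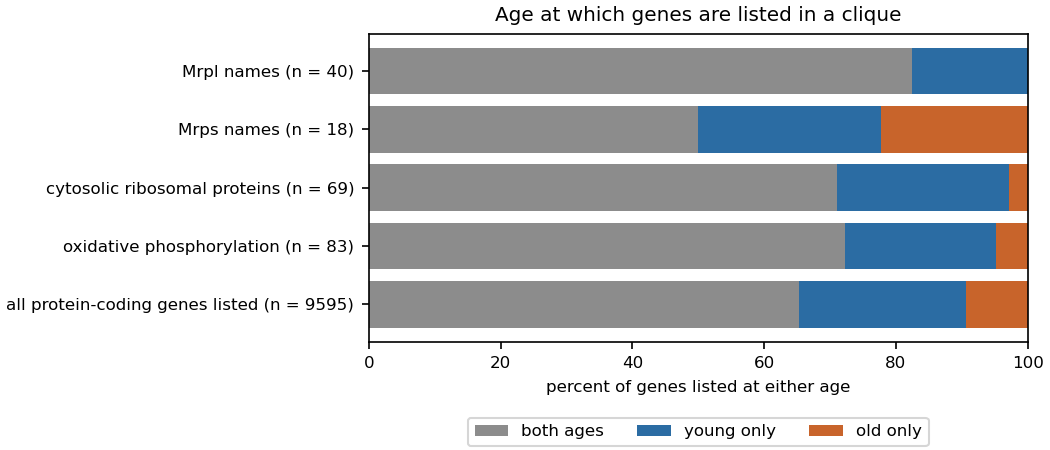
Percent of genes listed in a clique at both ages (grey), in young only (blue) and in old only (orange), for members by name, for 2 other gene groups and for all listed protein-coding genes. Old-only listing was 0 of 40 for Mrpl names, 4 of 18 for Mrps names and 9.43% of all listed genes.

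Of the 42 members listed at both ages, 33 had the smaller clique in old (78.6%), 4 the larger and 5 an equal one. Over all 6257 genes listed at both ages, 81.5% were smaller, 13.0% larger and 5.53% equal, so the members' counts were near the background. The members' medians were 23.5 young and 16.5 old nodes, with a median old to young ratio of 0.768. For all such genes these were 30, 16 and 0.633. At least 2-fold smaller in old were 15 members (35.7%), against 38.4% of all, and at least 2-fold larger was 1, Mrps24 (2.38%), against 4.28%. Over all 58 members, with 1 node added to both sizes and 0 for a gene not listed, the median log2 value was -0.56, and over all listed genes -0.93. After each size was divided by its age's mean, 16 of the 42 members were smaller in old and 26 larger, and 3189 and 3068 of all genes. The 26 include the 5 members of equal size, all in cliques of 2 nodes, and Mrpl12, with a log2 value of 0.003. The 346 genes of equal size among all genes also count as larger under this division. The median over the 58 members then turned to 0.068, with -0.32 over all genes.

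**Figure D3:**
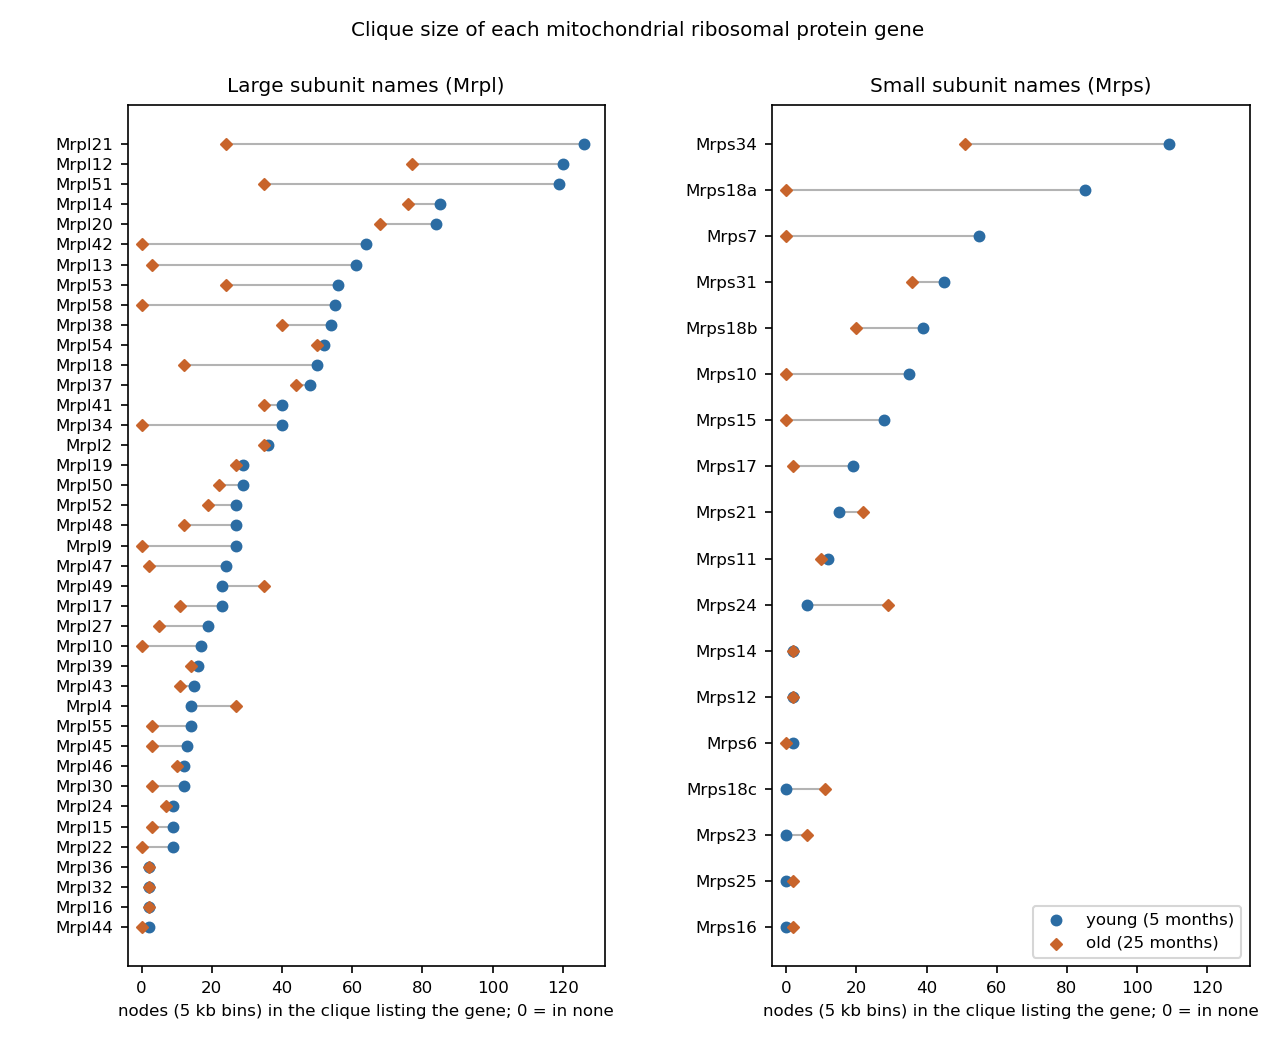
Nodes in the clique that lists each of the 58 members, in young (blue circles) and old (orange diamonds), with 0 for a gene in no clique of that age. Mrpl21 ran from 126 to 24 nodes, Mrps18a from 85 to 0 and Mrps24 from 6 to 29, while Mrpl2 (36 and 35) and Mrpl54 (52 and 50) had nearly the same size at both ages.

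The 3 largest young cliques with members held large subunit genes. Mrpl21 (chromosome 19, 3282997 to 3292837) was in the largest young one, with 126 nodes over 985 kb, next to Ighmbp2 and to Cpt1a, the carnitine palmitoyltransferase of the outer membrane. In old all 3 genes were in a clique of 24 nodes over 200 kb, and the young clique's nodes were spread over 6 old cliques, with 84 of the 126 still present. Close to the gene the picture was different: 13 nodes lay within 50 kb of its start site at both ages. Mrpl12 encodes the stalk protein that contacts translation factors on the ribosome. It was in cliques of 120 and 77 nodes on chromosome 11 (120484637 to 120488754), the largest old clique with a member, beside Slc25a10, a mitochondrial dicarboxylate carrier. Mrpl51 (chromosome 6, 125192200 to 125194392) was in cliques of 119 and 35 nodes, beside Ncapd2 and Gapdh at both ages. Its young clique listed 36 protein-coding genes and its old clique 10.

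Other large subunit genes kept cliques of like size. Mrpl14, which has a bacterial homologue, had 85 nodes in young and 76 in old, Mrpl20 had 84 and 68, Mrpl54 had 52 and 50, Mrpl37 had 48 and 44, and Mrpl41 had 40 and 35. For Mrpl2, whose product lies close to the peptidyl transferase centre, the sizes were 36 and 35, and 27 of its 36 young nodes were present in old. Mrpl19 had 29 and 27 nodes, and 26 of the 29 young nodes lay in 1 old clique. All of these were slightly smaller in old as listed and larger once each size was divided by its age's mean. Mrpl38 (54 and 40), Mrpl50 (29 and 22), Mrpl52 (27 and 19), Mrpl39 (16 and 14), Mrpl43 (15 and 11), Mrpl46 (12 and 10) and Mrpl24 (9 and 7) followed the same order.

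The 15 members at least 2-fold smaller in old had old cliques of 2 to 51 nodes. Mrpl13 (chromosome 15, 55534095 to 55557312) was in cliques of 61 and 3 nodes, and its old clique held Mtbp as the only other protein-coding gene. Mrpl47 was in cliques of 24 and 2 nodes, its old clique listing besides it only Ndufb5, a subunit of respiratory complex I that starts 308 bp away on the opposite strand. Mrps17, a small subunit gene, was in cliques of 19 and 2 nodes. Mrpl21, with 126 and 24, came next by ratio. Mrpl55 was in cliques of 14 and 3 nodes, but another old clique, of 17 nodes, overlapped the gene with 2500 bp added on each side. Mrpl45, whose product anchors the ribosome to the inner membrane, was in cliques of 13 and 3 nodes. The rest of the 15 were Mrpl18 (50 and 12), Mrpl53 (56 and 24), Mrpl48 (27 and 12), Mrpl17 (23 and 11), Mrpl27 (19 and 5), Mrpl30 (12 and 3), Mrpl15 (9 and 3), Mrpl51 and Mrps34. Mrps34, which is needed for a stable small subunit rRNA, had 109 nodes in young and 51 in old (chromosome 17, 24895120 to 24896289). Its young clique listed 50 protein-coding genes and reached 8 old cliques, the most of any member's clique.

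**Figure D4:**
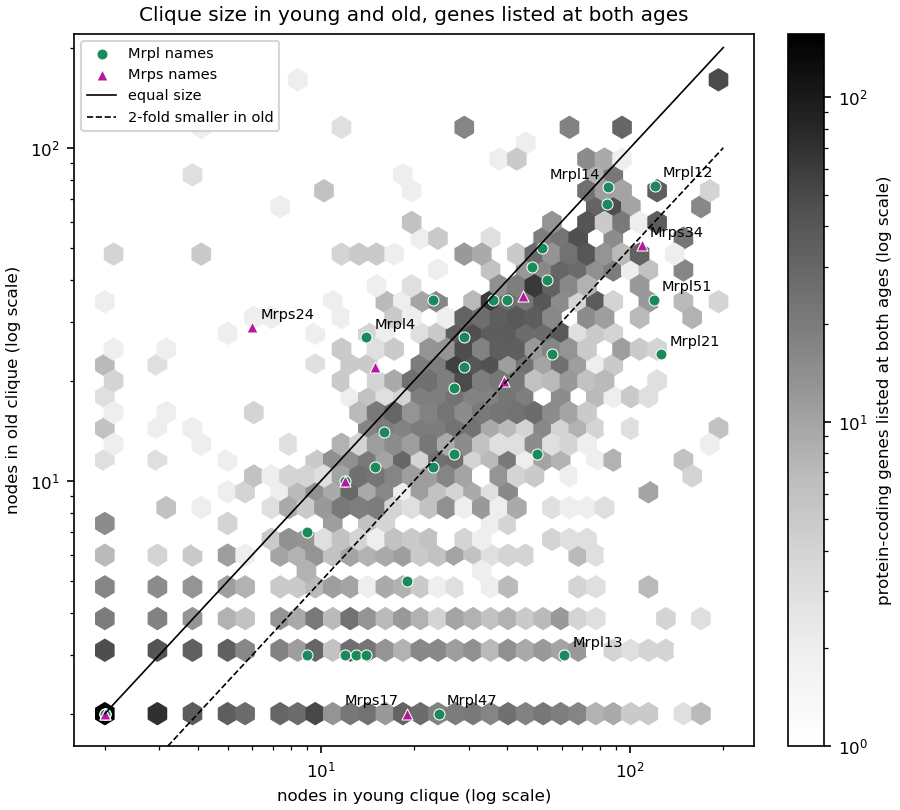
Clique size in young against old on log axes for the 42 members listed at both ages (green circles, Mrpl; purple triangles, Mrps) over all 6257 genes listed at both (grey hexagons, darker for more genes), with lines of equal size and of 2-fold smaller size in old. Of the members 15 lie on or below the dashed line and 4 above the solid one.

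Larger old cliques were listed for 4 members, and the ratio reached 2 only for Mrps24. Mrps24 (chromosome 11, 5703982 to 5707701), a small subunit homologue of a bacterial protein, was in cliques of 6 nodes over 85 kb and 29 nodes over 505 kb. Its old clique listed Dbnl, as the young one did, and also Xbp1, a transcription factor of the unfolded protein response. Of the 29 old nodes 25 were young nodes, in 2 young cliques, the larger with 55 nodes. Mrpl4 was in cliques of 14 and 27 nodes, with Icam1 at both ages, Mrpl49 in cliques of 23 and 35, with Syvn1 and the ribosomal protein gene Fau, and Mrps21 in cliques of 15 and 22, with Ciart. For Mrpl4, 5 of the 14 young nodes were old nodes. Of its 27 old nodes 25 were young nodes, in 2 young cliques, the larger with 28 nodes and not the one listing Mrpl4. Around the start sites the order was not the same: 6 nodes lay within 50 kb at both ages for Mrps24, 15 in young and 11 in old for Mrpl49, and 12 and 10 for Mrps21. Among the other small subunit genes, Mrps31 had 45 nodes in young and 36 in old and Mrps18b had 39 and 20. All 5 members of equal size were in cliques of 2 nodes, and were Mrpl16, Mrpl32, Mrpl36, Mrps12 and Mrps14. Mrpl32, with the proteasome subunit gene Psma2, and Mrps14 had the same 2 bins at both ages. Mrps12, a protein of the decoding centre, and Mrpl16 had old cliques that shared no node with the young network.

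The 12 members listed in young only had young cliques of 2 to 85 nodes. Among the large subunit names these were Mrpl42 (64 nodes), Mrpl58 (55), Mrpl34 (40), Mrpl9 (27), Mrpl10 (17), Mrpl22 (9) and Mrpl44 (2). Mrpl58 encodes a peptidyl-tRNA hydrolase built into the ribosome, and Mrpl10 the anchor of the stalk protein encoded by Mrpl12. Among the small subunit names they were Mrps18a (85), Mrps7 (55), Mrps10 (35), Mrps15 (28) and Mrps6 (2). Mrps7 is an early assembling protein of the head of the small subunit. In none of the 12 was the bin holding the start site a node in old. This nearly restates that they were not listed: of the genes with a start site that no old clique listed, 2.58% had a node in that bin, and of the listed ones 90.7% had it in the listing clique. The nearest old node lay 0.804 kb from the start of Mrps10, 1.66 kb from Mrpl22, 1.67 kb from Mrpl9, 3.75 kb from Mrpl58, 4.93 kb from Mrpl34, 5.86 kb from Mrps7 and 6.58 kb from Mrpl10. It was 8.05 kb away for Mrpl42, 19.0 kb for Mrps18a, 26.7 kb for Mrps6, 38.1 kb for Mrps15 and 44.0 kb for Mrpl44. So for some of these genes the old network held nodes next to the promoter bin, and for others none nearby. By gene span with 2500 bp on each side, 7 of the 12 reached an old clique, the largest of 76 nodes for Mrps18a, and 5 reached none.

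For 9 of the 12, most nodes of the young clique were still nodes in old. For Mrps10, 30 of 35 young nodes (85.7%) were old nodes, for Mrpl10 15 of 17, for Mrps15 22 of 28, for Mrpl34 31 of 40 and for the clique of Mrpl58 and Mrps7 42 of 55. Mrps18a had 70 of 85 and Mrpl9 17 of 27. The share was lower for Mrpl42, with 35 of 64, all in 1 old clique of 38 nodes that did not list the gene. Mrpl22, with the interferon-induced GTPase genes Igtp and Irgm2 in its young clique, had 4 of 9. The 2-node cliques of Mrpl44 and Mrps6 shared no node with the old network. Mrps6 lies in 1 locus with Slc5a3, which its young clique also listed.

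The 4 members listed in old only were all small subunit genes. Mrps18c (chromosome 5, 100798759 to 100804467) was in an old clique of 11 nodes with Helq and Abraxas1, and Helq starts 159 bp from it on the opposite strand. Of those 11 nodes 7 were nodes in young, all in 1 clique that did not list the gene, and the nearest young node was 16.2 kb from its start. Mrps23 was in an old clique of 6 nodes with the splicing factor gene Srsf1 and Dynll2, and a young node lay 0.613 kb from its start site. By gene span it had 12 nodes in young and 6 in old, so that its log2 value turned from 2.81 to -0.89. For Mrps16 (chromosome 14, 20391222 to 20393634) the old clique held 2 nodes, of which 1 was a young node. The start site of Mrps16 lay 13.6 kb from the nearest young node. Mrps25 (chromosome 6, 92169512 to 92184023) was also in a clique of 2 nodes, and the nearest young node was 419 kb from its start. None of the 4 had a young node in the start site bin, which again follows the listing, since 3.02% of genes unlisted in young had one.

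**Figure D5:**
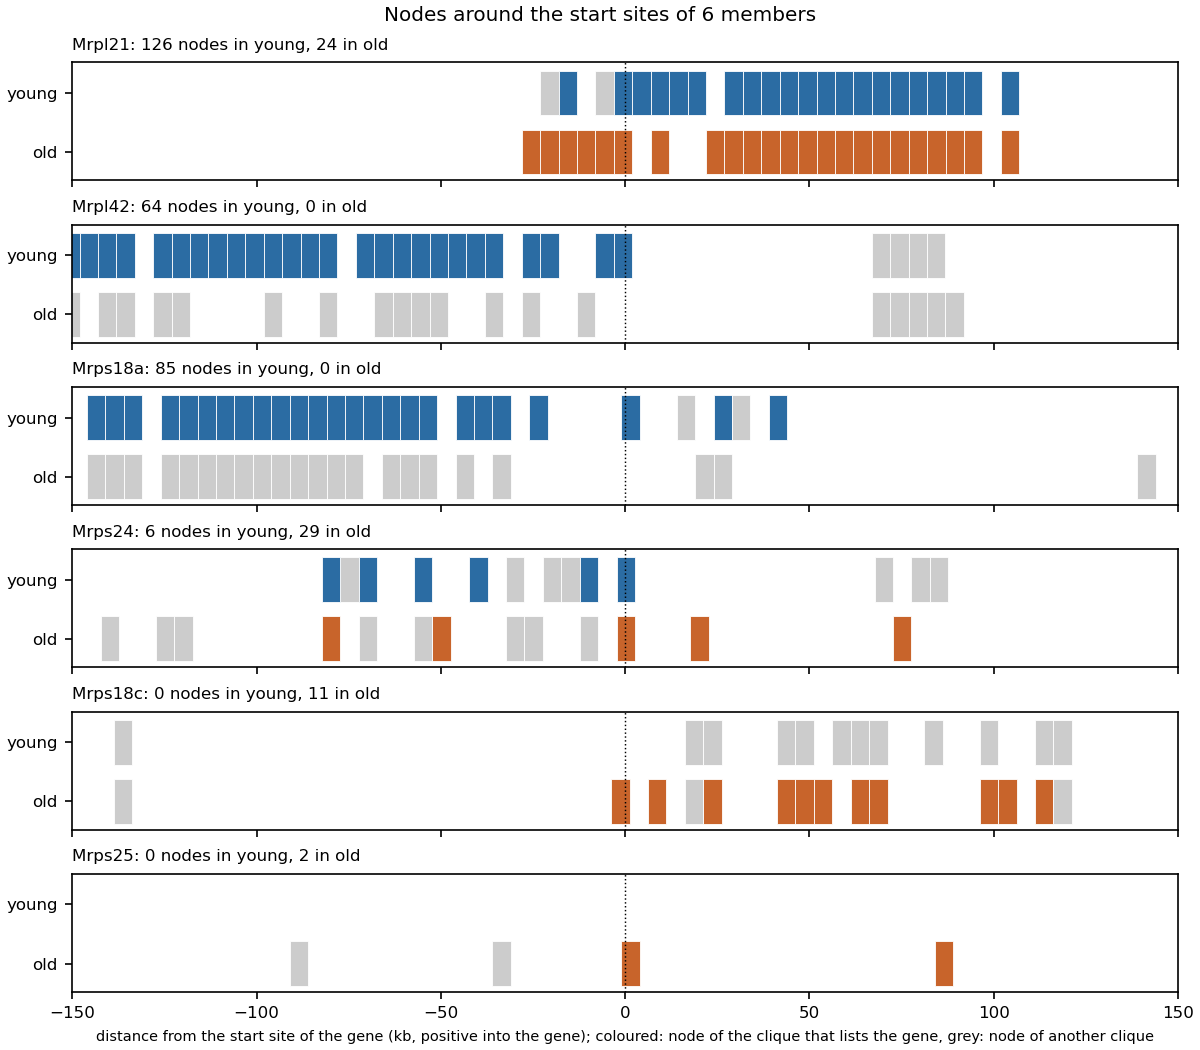
Nodes within 150 kb of the start site (dotted line) of 6 members in the young (upper) and old (lower) network, coloured where the node belongs to the clique that lists the gene and grey where it belongs to another. Mrpl21 had 13 nodes within 50 kb at both ages despite cliques of 126 and 24, and at Mrps18a and Mrpl42 the start site bin was a node in young and not in old.

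Nodes at and near the start site were also counted, whichever clique they belonged to. The start site bin largely repeats the listing, since it was in the listing clique for 93.5% of listed genes in young and 90.7% in old. It was a node in young for 42 of 51 members and in old for 37, with 31 at both ages, 11 in young only and 6 in old only. Where a member was listed, its start site bin belonged to the listing clique in 42 of 47 cases in young and 37 of 39 in old. With a neighbouring bin also counted, the numbers were 48 in young, 44 in old and 41 at both. Within 50 kb of the start site, 31 of 51 members (60.8%) had fewer nodes in old, 8 more (15.7%) and 12 the same number. Over the 7690 listed genes with a start site, 72.0% had fewer and 16.8% more. The members' median was 8 nodes at both ages, against 9 and 7 for all. Among the 12 members with a start site and a clique at least 2-fold smaller in old, 8 had fewer nodes within 50 kb, 2 the same number and 2 more, and only Mrpl48 (16 and 8) had at most 50% of its young number. Of the 1937 such genes in all, 80.8% had fewer nodes and 24.2% had at most 50%. This window was chosen after the clique sizes were seen.

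The 54 members listed in young were in 51 cliques and the 46 listed in old in 45. Shared cliques joined only 3 pairs, and the values within a pair are not independent. Mrpl46 and Mrps11, one gene of each subunit, lie 41 bp apart on chromosome 7 and shared a 12-node clique in young and a 10-node one in old, with Aen. Mrpl14 and Mrps18a lie 412508 bp apart on chromosome 17 and shared the young clique of 85 nodes. In old Mrpl14 was in a clique of 76 nodes that held 68 of them and also listed the mitochondrial alanyl-tRNA synthetase gene Aars2, but not Mrps18a. Mrpl58 and Mrps7 lie 191465 bp apart on chromosome 11 and shared the young clique of 55 nodes, and neither was listed in old. The young cliques with members held 1768 nodes, of which 1254 (70.9%) were old nodes, compared with 59.7% over all 2944 young cliques that list a protein-coding gene. No matching on size was done here, and the median clique had 27 nodes among those with members and 10 among all. Their nodes were in at least 2 old cliques for 33 of 51 (64.7%), against 35.9%. In the other direction 788 of 928 nodes (84.9%) of the old cliques with members were young nodes, near the 83.9% over all old cliques with a protein-coding gene.

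Several members shared a clique with another gene for a mitochondrial protein of the fixed groups. This was so for 10 of 54 members in young (18.5%), against 953 of 8636 other listed genes, and for 9 of 46 in old (19.6%), against 8.01% of 7116. Mrpl36 was with Ndufs6, a complex I subunit gene, and Mrpl39 with Atp5j, an ATP synthase subunit gene, at both ages. Mrpl43 was with Twnk, the mitochondrial DNA helicase gene, in cliques of 15 and 11 nodes, and Mrpl52 with Oxa1l, the inner membrane insertase gene, in cliques of 27 and 19. Mrpl20 was with Aurkaip1, itself a small subunit gene, in cliques of 84 and 68. Mrps34 was with the complex I gene Ndufb10 and Mrpl47 with Ndufb5 at both ages. In young only, Mrpl21 was with the complex I genes Ndufs8 and Ndufv1, and Mrpl58 and Mrps7 with the ATP synthase gene Atp5h. In old only, Mrpl14 was with Aars2 and Mrps12 with Sars2, genes of mitochondrial aminoacyl-tRNA synthetases.

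Some subunit genes do not carry the Mrpl or Mrps name. Of 6 genes in this group, which includes the insertase gene Oxa1l, 5 were in cliques at both ages, 4 smaller in old and 1 larger. Aurkaip1 (84 and 68), Gadd45gip1 (72 and 59) and Chchd1 (31 and 14) were smaller in old and Dap3 (2 and 7) was larger, and by gene span Dap3 had 8 nodes in young and 7 in old. Ptcd3 was listed at neither age. For ribosome assembly and rRNA modification, 21 of 24 genes were listed, with 13 at both ages, 7 in young only and 1 in old only. Of the 13, 10 were smaller in old, 1 larger and 2 equal, and the median log2 value of the list was -1.58. Ngrn, an assembly factor of the large subunit, was in cliques of 95 and 3 nodes, or 95 and 12 by gene span. Tfb1m, an rRNA methyltransferase gene, and the helicase gene Dhx30 were listed in young only, with 19 and 12 nodes, and by gene span had 3 and 2 nodes in old. Mterf4 was listed in old only, with 40 nodes.

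Among 13 translation factor genes, 12 were listed, with 6 at both ages, 3 in young only and 3 in old only, and 5 of the 6 were smaller in old. Tufm, the elongation factor that delivers aminoacyl-tRNA, was listed in young only, with 63 nodes, and by gene span also had 0 in old. Gfm1, the translocation factor, and Taco1, an activator of translation of a cytochrome oxidase subunit, were each listed in young only, with 16 nodes. By gene span Gfm1 had 13 nodes in old and Taco1 had 0. Mtrf1 was in cliques of 29 and 2 nodes. Of 19 mitochondrial aminoacyl-tRNA synthetase genes 12 were listed, 5 at both ages, 4 in young only and 3 in old only, and their young median was 6 nodes. Aars2 was in no young clique and an old one of 76 nodes, while Fars2 (11 nodes), Kars (9) and Ears2 (6) were listed in young only. By gene span Fars2 had 14 nodes in old, Kars 28 and Ears2 0. For mitochondrial DNA replication and transcription, 7 of 8 genes were listed, 5 at both ages and 2 in young only, 3 of the 5 smaller in old. Polrmt, the mitochondrial RNA polymerase, was in cliques of 8 and 160 nodes and Tfb2m in cliques of 66 and 6. Polg2 (88 nodes) and Tfam (28), which packages mitochondrial DNA, were in no old clique. Median log2 values were -0.30 for subunits with other names, -0.68 for translation factors, -0.42 for synthetases and -1.82 for replication and transcription.

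Other groups with a related function were set beside the members without a test. Of 69 listed cytosolic ribosomal protein genes, which build the ribosome of the cytosol, 49 were listed at both ages (71.0%), 18 in young only and 2 in old only. Of those 49, 38 had the smaller clique in old and 9 the larger, 17 (34.7%) were at least 2-fold smaller, and the median ratio was 0.684. Of 83 listed oxidative phosphorylation genes 60 were listed at both ages (72.3%), 19 in young only and 4 in old only. Of the 60, 51 were smaller and 5 larger in old, 30 (50.0%) at least 2-fold smaller, and the median ratio was 0.511. The members' median ratio of 0.768 was thus nearer to 1 than those of both groups and of all genes. Like medians were found in smaller groups: subunits with other names had 0.81, synthetases 0.75 and replication and transcription genes 0.73. Each of these is a median over only 5 genes listed at both ages. The 0.81 is the ratio of Aurkaip1, which was in the cliques of Mrpl20. The 0.73 is that of Twnk, in the cliques of Mrpl43, so these values are not independent of the members. Translation factors had 0.59 and assembly genes 0.44. The members' ratio includes 5 genes in cliques of 2 nodes at both ages. There is no measure of how far it would vary between animals.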

How the data were processed

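The authors deposited, for each age, a table of nodes with positions and a table of cliques with the number of nodes, the listed genes and the node names, per the file headers. Every node was a 5 kb bin in exactly 1 clique. Bowtie2 and HiC-Pro, with the builds mm10 and GRCm38, are named in the submitters' processing notes. The loop caller, the clique method, the promoter window, the depth and the way the 12 libraries were combined were each not given in the sources used here.

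Of 16197 listed names 9604 matched 9595 protein-coding genes of RefSeq (GRCm38.p6), by symbol or unique synonym. Clique size was the node count of the clique listing a gene, 0 if none, compared as log2((old + 1)/(young + 1)), with a fold only where listed at both ages and 2-fold as the call. Start sites and promoters came from RefSeq for 51 of 58 members. S6 kinase genes were kept out of the cytosolic group, and the oxidative phosphorylation group, chosen by name, includes assembly factors. Fully described members were those listed at 1 age, the 6 greatest decreases, all increases, the 6 largest cliques of each age and those sharing a clique, with up to 4 genes of each list by absolute log2 value and 3 nearest co-listed genes. Alternatives were other ways to assign a gene, a minimum clique size, other scalings and windows around the start site. Members, lists and rules were chosen with earlier results of these data known. The functions were tested on simulated networks. Python 3.11.15, pandas 2.3.3, statsmodels 0.14.6 and matplotlib 3.10.9 were used.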

Additional observations from a re-analysis of the deposited data

How the results depend on the processing

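No paired analysis was possible because each age has 1 pooled network, and for the same reason no library could be left out. Of 61 recomputed summary values, 44 stayed within 1.5 times the reported one or, for the share of nodes kept, within 10 percentage points. Some of the 44 could not move. Each member was in at most 1 clique per age, so taking its smallest clique changed nothing. Adding 5 nodes in place of 1 enters the log2 values but not the counts. Keeping 1 member per pair of cliques left 56 members. The 44 are thus not separate checks. Dividing sizes by the mean of the age gave 16 members smaller and 26 larger in old and a median log2 value of 0.068. Dividing by the median over genes listed at both ages gave 16, 26, 9 at least 2-fold smaller and a median of 0.33. By gene span, 5 members were in young only and 3 in old only, Mrpl55 had a log2 value of 0.26, and Mrps23 turned from 2.81 to -0.89. With cliques of at least 3 nodes, 2 were in old only. Nodes within 50 kb of the start site, an alternative chosen after seeing the data, gave 7 members with more nodes in old among those with nodes at both ages, 6 at least 2-fold fewer and a median of -0.16. Within 100 kb, also chosen then, these were 10, 4 and -0.23. With a neighbouring bin counted, 7 start sites had a node in young only and 3 in old only. Over all listed genes, values under the same setting are given above for division by the mean of the age. For nodes within 50 kb, shares with fewer and more nodes are also given above, without the limit to genes with nodes at both ages. The other counts here show how the members' values move and have no background beside them. The number of contacts behind each network is unknown, and whether absence of a gene from a network follows depth was not tested.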

Other observations

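Of the 78 annotated mitochondrial ribosomal protein genes, 20 were listed at neither age, 9 with Mrpl and 11 with Mrps names. No node of either age lay within 2500 bp of the gene span for 14 of them. Among these were Mrpl3, with the nearest node 341.7 kb from its start site in young and 586.7 kb in old, and Mrps30, at 637.3 and 982.7 kb. Mrpl35 and Mrpl40 were closer, with the nearest node at 11.2 and 16.6 kb at both ages. A young clique reached the gene span of 5 of the 20, Mrpl1, Mrps5, Mrps9, Mrps28 and Mrps35, each with 2 or 3 nodes, and an old clique that of 2, Mrpl1 and Mrps33. At Mrpl1 the start site bin was a node in old, in a clique of 2 nodes that did not list the gene.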
